A study of Mus musculus with 2 samples.

Results

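The genes described here encode the nuclear subunits and named assembly factors of respiratory complex I in mouse erythroblasts, the nucleated precursors of red blood cells. They were chosen by name alone, as the gene rows whose Ensembl identifier belongs to a protein-coding mouse gene with a symbol starting Nduf, which gave 46 of 21474 protein-coding genes and of 43346 Ensembl gene rows. Messenger RNA was read by paired-end sequencing after poly(A) selection in 2 libraries of Ter119-positive cells of the fetal liver, taken at embryonic day 14.5 from male and female embryos pooled together. The labels give no strain, genotype or treatment, and they number the libraries as biological replicates 1 and 2 with 1 donor entry between them. There is 1 group and no reference condition, so the levels are described and the libraries, called library 1 and library 2, are set against each other. Ter119 is a surface protein of maturing red cells, so the sort takes erythroblasts of several stages together.

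Complex I takes electrons from NADH and passes them through a flavin and a chain of iron-sulfur clusters to ubiquinone, and it pumps protons across the inner mitochondrial membrane. Its matrix arm binds NADH and holds the electron path, its membrane arm pumps protons, and mitochondrial genes encode the pumping core while nuclear genes encode the matrix core and a shell of accessory subunits. Erythroblasts need mitochondria for heme synthesis and clear them as they mature into red cells.

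Libraries 1 and 2 held 51190552 and 44256272 counts, of which the Nduf genes took 59868 and 46407. Globin genes held 86.0% and 84.4% of all TPM, a length-corrected transcript level with the same sum in each library. The erythroblast markers were all 7 above 1 TPM and summed to 796205 and 813833 TPM. The hepatocyte list summed to 10.4 and 11.1 TPM with 2 of 6 genes at 1 TPM or more, the macrophage list to 10.99 and 17.18 TPM with 3 of 7, the granulocyte list to 8.94 and 10.9 TPM with 3 of 4, and the megakaryocyte list to 10.9 and 13.9 TPM with 2 of 4. The lymphocyte list summed to 3.41 and 4.10 TPM with 1 of 4, the endothelial and stromal list to 0.14 and 0.18 TPM with 0 of 5, and the defining markers Ly6g and Cd3e were listed at 0. In these bulk samples, fewer cells of a type and less RNA per cell cannot be told apart.

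One member could not be read by itself, and its sequence is shown because it shows why. Ndufb4, a small subunit of the distal membrane arm on chromosome 16 (mm10, 37647170 to 37654453, minus strand), has a copy named Ndufb4c at chr15:73809507-73809896 on the minus strand. Ndufb4c is annotated as a processed pseudogene in GENCODE M21 and is not among the 46. Its single transcript of 390 bases was identical along its whole length to bases 95 to 484 of the 971-base transcript Ndufb4-201. The first 120 bases of that shared stretch, the same letters in both genes, begin with the start codon in capitals (GENCODE M21 transcripts on mm10).
Ndufb4 and Ndufb4c: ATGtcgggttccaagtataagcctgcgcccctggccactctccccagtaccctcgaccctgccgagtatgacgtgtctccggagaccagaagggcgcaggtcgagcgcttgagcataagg
Reads that lie within the shared stretch cannot be told apart by sequence. The deposited tables gave the copy 5081 counts in library 1 and 4262 counts in library 2, and gave Ndufb4 763 and 564 counts. The copy thus took 86.9% and 88.3% of the counts of the pair, which together came to whole numbers, 5844 and 4826. In TPM, Ndufb4 stood at 9.40 and 8.86 in libraries 1 and 2 and the copy at 209 and 220, above every one of the 46 genes in each library. If every count of the pair came from Ndufb4 at its own length, its level would be 72.0 TPM in library 1 and 75.9 TPM in library 2, so its level is uncertain between its listed value and these.

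The other members had little of this kind. In all, 13 of the 46 shared at least 1% of their 31-base words with 1 or more of 17 annotated pseudogenes, of which 6 had any counts. Apart from Ndufb4c the highest were Ndufab1-ps, a copy of Ndufab1, with 0.42 TPM in library 1 and 0.57 TPM in library 2, and Gm15920, a copy of Ndufa12, with 0.13 and 0.59 TPM. Counts that were not whole to within 0.01, a mark of reads divided among genes, occurred in 4 members: Ndufa12, Ndufab1, Ndufb4 and Ndufs5. Some members overlap a neighbour on the genome instead, and since the strand setting of the counting is not given, their values are uncertain to that extent. Ndufb6 shared 34.4% of its words with Smim27, Ndufa13 shared 28.3% with Tssk6, Ndufb5 shared 11.6% with Mrpl47, Ndufb11 shared 9.91% with Rbm10, and Ndufa2 shared 6.64% with Tmco6. Ndufaf2 shared 65.1% of its words with other annotated genes. Words were taken over all GENCODE M21 transcripts of each gene, 2956 for Ndufaf2, while its counts lie on a transcript of 679 bases. Its counts were whole in both libraries, and the shared part of that transcript alone was not measured.

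Complex I transcripts were present across nearly the whole set. Of the 46 genes, 39 (84.8%) stood at 1 TPM or more in both libraries, where 20.0% of all protein-coding genes did. The median of the mean level was 9.01 TPM over all 46, against 0.02 TPM over all protein-coding genes and 5.02 TPM over those detected by the same rule. The set summed to 1178 TPM in library 1 and 1157 TPM in library 2 (mean 1167 ± 14.7, SD, n = 2). Outside the globins it held 0.842% and 0.743% of TPM (mean 0.792% ± 0.0703, SD, n = 2). Both libraries ordered the members alike, with a Spearman coefficient of 0.971 over the 46 genes.

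The members were far from equal. From the highest mean, Ndufa7, to the lowest, the assembly factor Ndufaf7, the ratio was 4485-fold. Among the subunits, most of which are present once in each complex, it was 730-fold, from Ndufa7 to Ndufs4. The 5 highest held 49.9% of the summed TPM. Of the 46, 20 stood at 10 TPM or more in both libraries, 4 had a mean of 100 TPM or more, and 5 lay under 1 TPM in both.

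**Figure D1:**
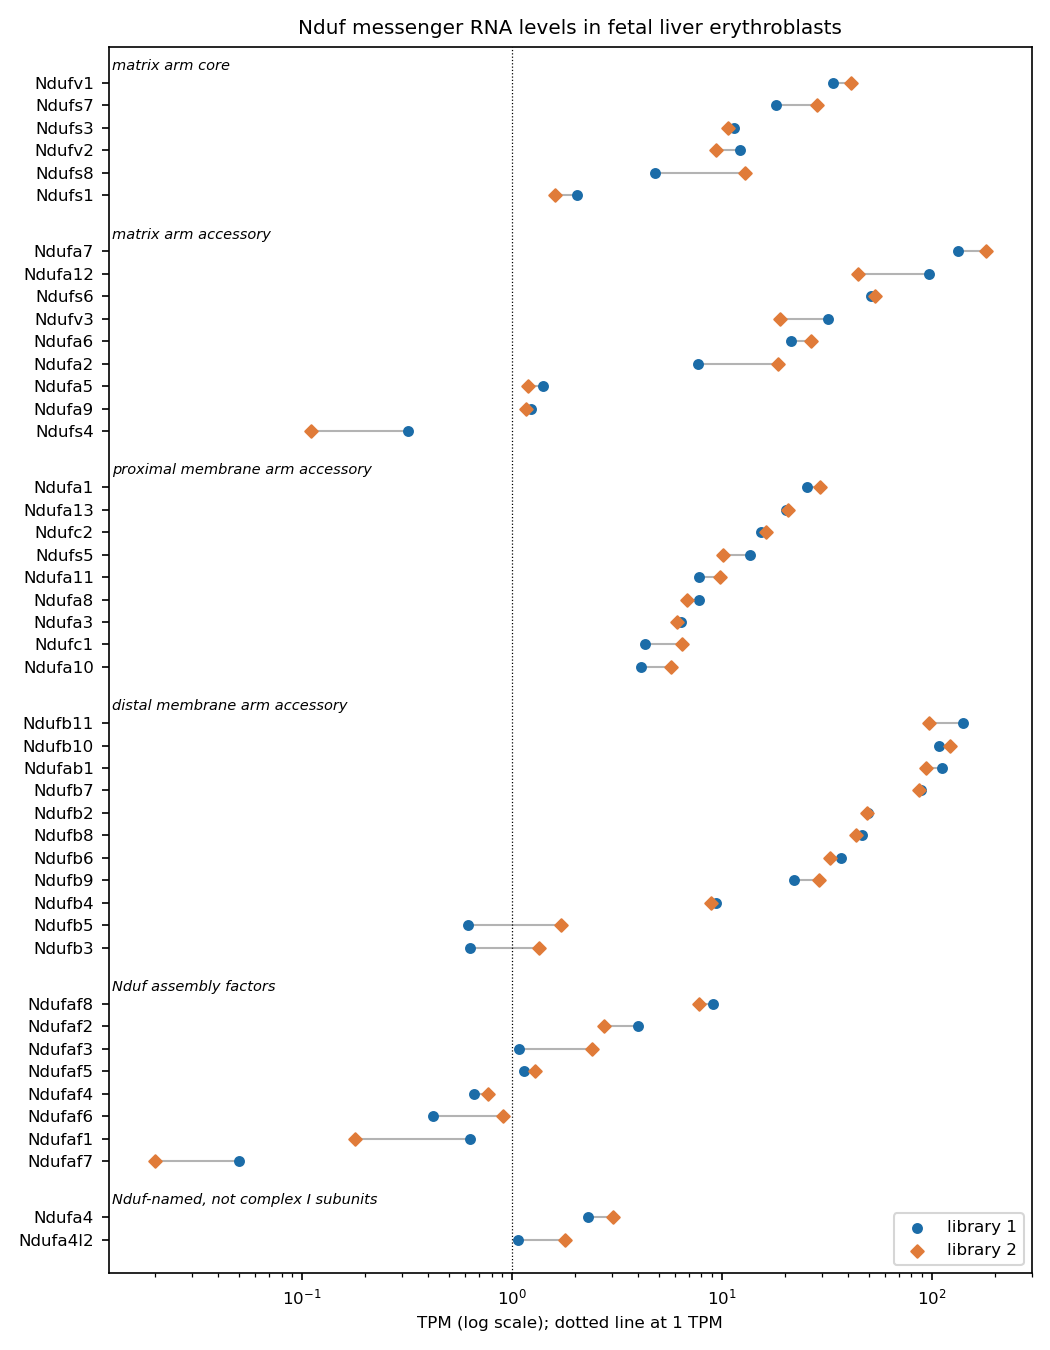
TPM of 45 of the 46 Nduf genes on a log axis, with 1 point for library 1 and 1 for library 2, grouped by place in the complex and ordered by mean; the line marks 1 TPM. The distal membrane arm and the matrix accessory subunits reach above 100 TPM, and the assembly factors run from 0.02 to 9.06 TPM.

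The matrix core subunits carry the flavin and the iron-sulfur clusters, and all 7 were detected in both libraries, with a median of 10.8 TPM. Over all transcripts the highest was Ndufv1, which binds NADH and the flavin, with 34.01 TPM in library 1 and 41.42 TPM in library 2. Ndufs7, which holds the last cluster before ubiquinone, had 18.2 and 28.3 TPM. Ndufs3, a core subunit without a cluster, had 11.5 and 10.7 TPM. Over all transcripts Ndufv1 and Ndufs7 stood above the rest of the core in both libraries. Ndufv2, a cluster protein next to Ndufv1, had 12.2 and 9.35 TPM and overlapped Ndufs3. On protein-coding transcripts alone Ndufv1 had only 4.51 and 5.94 TPM, below Ndufv2 and below Ndufs7 at 17.9 and 27.6 TPM. Ndufs3 had 2.39 and 2.53 TPM on that basis. The lowest was Ndufs1, the large cluster-bearing subunit, at 2.04 and 1.61 TPM. Ndufs1 lay below every other core subunit in both libraries, and over all transcripts the core ran over 20.7-fold from Ndufv1 to Ndufs1. Ndufs8, another cluster protein, had 4.83 TPM in library 1 and 12.9 TPM in library 2, so its place in the core changed with the library.

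The matrix accessory subunits spanned the widest range of the classes of members, 730-fold over 9 genes with a median of 24.1 TPM. Ndufa7 (chromosome 17, 33824572 to 33838317, plus strand, mm10), an accessory subunit of the matrix arm, had the highest mean of all 46 genes, with 134 TPM in library 1 and 180 TPM in library 2. Ndufa12, which takes the place of the assembly factor Ndufaf2 in the finished enzyme, had 97.5 and 44.8 TPM. Ndufs6, a zinc-binding subunit added late in assembly, had 51.2 and 53.9 TPM. At the other end, Ndufa9, which binds a nucleotide near the joint of the arms, had 1.24 and 1.17 TPM. Ndufs4 (chromosome 13, 114287795 to 114388258, minus strand, mm10), whose loss in mice is a model of Leigh syndrome, was the lowest with 0.32 and 0.11 TPM, resting on 43 and 12 counts. Ndufs4 was thus the 1 matrix accessory subunit not detected, and the values of Ndufs4 and Ndufs6 did not come near each other in either library. Between these extremes lay Ndufv3 at 31.9 and 19.0 TPM, Ndufa6 at 21.4 and 26.7 TPM, Ndufa2 at 7.68 and 18.5 TPM, and Ndufa5, a small subunit, at 1.40 and 1.19 TPM.

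In the proximal membrane arm, nearest the matrix arm, all 9 accessory subunits were detected and they were the most even of the 4 subunit classes, 5.58-fold from highest to lowest with a median of 8.77 TPM. Ndufa1, an X-linked subunit of a single membrane helix, had 25.3 and 29.5 TPM in libraries 1 and 2. Ndufa13, also known as GRIM-19, had 20.2 and 20.7 TPM. Ndufc2 had 15.4 and 16.3 TPM. The 2 lowest were Ndufc1 at 4.29 and 6.45 TPM and Ndufa10, which has the fold of a nucleoside kinase, at 4.12 and 5.71 TPM. The values of Ndufc1 and Ndufa10 overlap across the libraries. Ndufs5, Ndufa8, Ndufa3 and Ndufa11 lay between 6.12 and 13.7 TPM in every library. Ndufa11, whose mean is the class median, had 1912 and 1880 counts on a single transcript of 2661 bases. The annotation used for the shared words gave Ndufa11 only 1131 words, fewer than a transcript of that length would be expected to hold. The TPM of Ndufa11, its place in the class and the class median therefore depend on that length, and other lengths were not tested.

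The distal membrane arm, built around the proton-pumping subunits at its tip, had the highest median of the nuclear classes over all transcripts, 45 TPM over 11 genes, with 9 of them detected in both libraries. On protein-coding transcripts alone, with Ndufb4 at its listed level, its median was 10.7 TPM, below the 13.1 TPM of the matrix accessory class. If all counts of Ndufb4 and its copy Ndufb4c went to Ndufb4, that gene would have 72.0 TPM in library 1 and 75.9 TPM in library 2. The middle gene on coding transcripts would then be Ndufb8 at 25.1 TPM, so this order is uncertain. Of the 12 genes listed for the distal class, Ndufb1 was not analysed here. Ndufb11 (chromosome X, 20615326 to 20617619, minus strand, mm10), whose human counterpart is mutated in a form of sideroblastic anemia, had 141 TPM in library 1 and 96.5 TPM in library 2. Ndufb10, a disulfide-bonded subunit facing the intermembrane space, had 108 and 123 TPM. Ndufab1, the mitochondrial acyl carrier protein, which also serves fatty acid and lipoate synthesis, had 112 and 93.9 TPM. Their order differed between libraries, since Ndufb11 was highest in library 1 and Ndufb10 in library 2. The 2 lowest were Ndufb5 at 0.62 and 1.71 TPM and Ndufb3 at 0.63 and 1.34 TPM, both under 1 TPM in library 1 only. The class ran over 120-fold from Ndufb11 to Ndufb3, and Ndufb7, Ndufb2, Ndufb8, Ndufb6 and Ndufb9 stood between 22.03 and 89.03 TPM in every library.

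Assembly factors build the complex and leave it, and these 8 were the lowest class, with a median of 0.96 TPM and 4 detected in both libraries. Over all transcripts Ndufaf8, a partner of Ndufaf5, was the highest with 9.06 and 7.82 TPM in libraries 1 and 2. Its protein-coding transcripts had 1.92 and 1.65 TPM, below Ndufaf2. Ndufaf2, the paralogue of Ndufa12 that holds its place during assembly, had 3.98 and 2.76 TPM. Ndufaf3, which helps to build the ubiquinone module, had 1.08 and 2.41 TPM. Ndufaf5, which hydroxylates an arginine of Ndufs7, was close to the limit at 1.14 and 1.29 TPM. Its protein-coding transcripts had 0.33 and 0.36 TPM, and on coding transcripts alone 3 of the 8 factors were detected. Over all transcripts the other 4 factors lay below 1 TPM in both libraries. Ndufaf4, the partner of Ndufaf3, had 0.66 and 0.77 TPM, and Ndufaf6 had 0.42 and 0.91 TPM. Ndufaf1, which acts on the membrane arm, had 0.63 and 0.18 TPM on 70 and 18 counts. Ndufaf7 (chromosome 17, 78937136 to 78948052, plus strand, mm10), a methyltransferase, was the lowest of all 46 with 0.05 and 0.02 TPM on 11 and 4 counts. Each of these 4 still had reads in both libraries.

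The 2 remaining members bear Nduf names but are not counted as complex I subunits. Ndufa4 is found with complex IV and had 2.31 and 3.02 TPM in libraries 1 and 2, and its paralogue Ndufa4l2, known as a hypoxia-induced gene, had 1.07 and 1.80 TPM.

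Which transcript of a gene carried its level differed among the members, and it changes how the ranking above reads. The TPM of a gene is the sum over its transcripts, and short non-coding transcripts weigh more in it than in counts. The leading transcript was protein coding in 31 of the 39 members that had at least 50 counts in each library, and non-coding in the other 8. In 7 of those it was a retained-intron transcript, in which an intron is kept, and in 1 a processed transcript without a reading frame. The 8 non-coding leaders were 401 to 834 bases long with a median of 435.5, against a median of 651 bases for the 31 coding leaders. Of the 39, 13 have a single transcript among those counted, so their leading transcript was fixed by the annotation used.

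Several of the most abundant members were among the 8. For Ndufa12, Ndufa12-202 of 428 bases held 95.5% of the gene's TPM in library 1 and 91.6% in library 2. For Ndufab1, Ndufab1-208 of 443 bases held 90.5% and 88.5%. For Ndufb2, Ndufb2-206 of 422 bases held 87.9% and 92.4%. By counts, which weigh length, the share of Ndufab1-208 was 69.2% and 64.5%. Of the 8 leaders that of Ndufb10 moved most between the libraries, where Ndufb10-202 of 834 bases held 73.3% in library 1 and 43.8% in library 2, and the processed transcript Ndufb10-206 held 22.7% and 47.6%. Ndufaf8-203 of 401 bases held 78.9% and 79.0% of Ndufaf8, and Ndufaf5-202 of 509 bases held 71.0% and 71.9% of Ndufaf5. In counts Ndufaf5-202 had 29 and 26.4 in libraries 1 and 2, fewer than the 33 and 28.6 of the coding transcript Ndufaf5-201. Ranked by percent of counts, 30 of the 39 members had a coding leader. The processed transcript was Ndufs3-206 of 707 bases, with 73.1% and 68.3% of Ndufs3. In Ndufv1 no transcript held most of the level, with 46.51% and 45.98% on Ndufv1-209 of 412 bases and 39.6% and 38.2% on Ndufv1-211, both with a retained intron.

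Counted over protein-coding transcripts alone, the set summed to 738 TPM in library 1 and 777 TPM in library 2, which is 62.7% and 67.1% of its full sum, and 71.3% and 74.5% of its counts. The median on that basis was 6.03 TPM, and 9 members had under 50% of their TPM on coding transcripts in both libraries. The coding transcripts of Ndufb10 had 4.35 and 10.6 TPM. Ndufa7 kept 90.9% and 87.6% of its level, and Ndufb11, with a single counted transcript, kept 100% in both. Ndufa7 and Ndufb11 thus stayed high on coding transcripts. By class, the coding medians were 6.75 TPM for the matrix core, 13.1 TPM for the matrix accessory class and 8.77 TPM for the proximal class. They were 10.7 TPM for the distal class, with Ndufb4 at its listed level, and 0.43 TPM for the assembly factors.

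**Figure D2:**
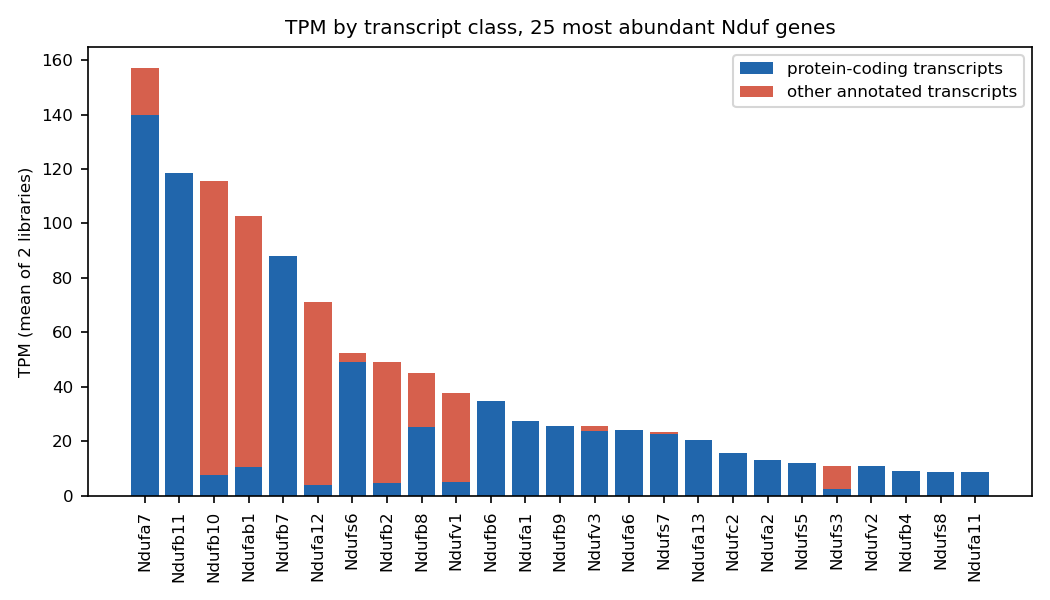
Mean TPM over the 2 libraries for the 25 most abundant Nduf genes, as bars split into protein-coding transcripts (blue) and other annotated transcripts (red). Ndufb10, Ndufab1 and Ndufa12 are mostly red, and Ndufb11 is wholly blue at 119 TPM.

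Base composition moved with the levels. Over the 46 members the GC content of the transcripts ran from 41.5% to 60.4% with a median of 51.6%, against a median of 49.7% over all protein-coding genes. The Spearman coefficient between GC content and level was 0.405 over the members and 0.299 over 21474 protein-coding genes, and that between effective length and level was -0.406 over the members. All points come from the same 2 libraries, so these are descriptions. Members with 50% GC or more were 25, of which 24 were detected, with a median of 13.1 TPM. Those with 45% to under 50% were 17, with a median of 5.37 TPM, and the 4 under 45% had a median of 0.85 TPM with 1 detected. Ndufs4, at 44.2%, was among the last, while Ndufaf6 was under 1 TPM at 52.1% and Ndufab1 stood at 103 TPM (mean) with 45.5%. The part of GC content in the levels was not tested.

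**Figure D3:**
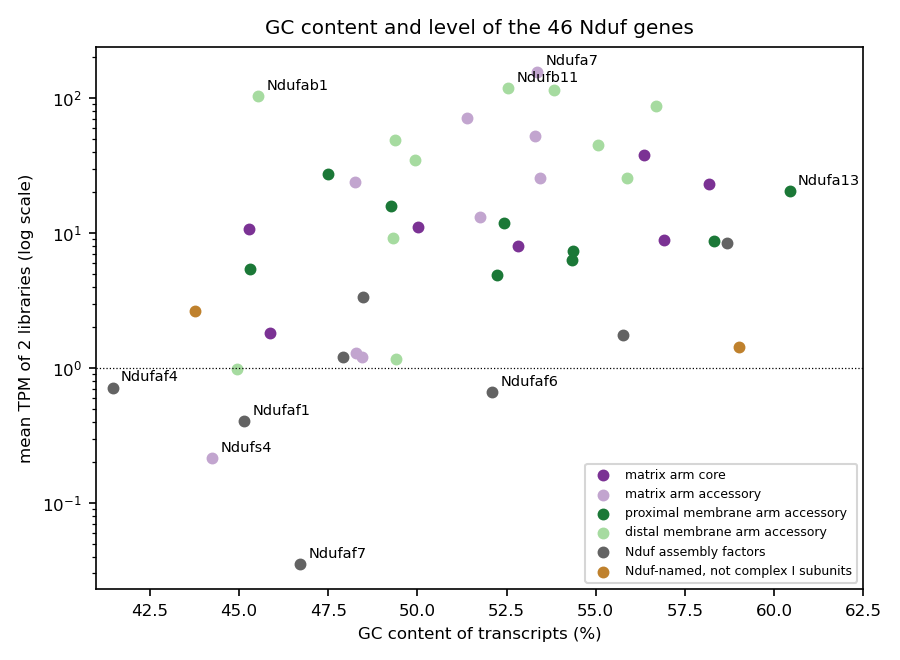
Mean TPM on a log axis against the GC content of the transcripts in percent, 1 point per member, with the line at 1 TPM. The 4 genes under 45% GC lie low, with a median of 0.85 TPM, and the 25 at 50% or more have a median of 13.1 TPM.

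The promoters of a high and a low member of the same arm are shown because they carry the same kind of motif at opposite levels. Promoters were windows of 250 bases before to 50 after the gene start from RefSeq (GRCm38.p6), of which 40 of the 46 members had one. Capitals mark matches to motifs of the nuclear respiratory factor NRF1 and of YY1, factors known from human cells to act at genes of oxidative phosphorylation; the NRF1 match comes first in Ndufs6 and reads on the opposite strand, each match is 10 letters long, and each motif leaves 1 position free. Ndufs6 is at chr13:73328433-73328732 and Ndufs4 at chr13:114388045-114388344, both on the minus strand.
Ndufs6: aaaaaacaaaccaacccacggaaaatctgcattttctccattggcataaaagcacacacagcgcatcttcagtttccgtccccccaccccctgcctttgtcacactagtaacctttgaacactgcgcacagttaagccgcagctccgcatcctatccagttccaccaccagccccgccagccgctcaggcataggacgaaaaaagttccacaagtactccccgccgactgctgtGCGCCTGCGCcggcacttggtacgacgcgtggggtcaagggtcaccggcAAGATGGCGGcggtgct
Ndufs4: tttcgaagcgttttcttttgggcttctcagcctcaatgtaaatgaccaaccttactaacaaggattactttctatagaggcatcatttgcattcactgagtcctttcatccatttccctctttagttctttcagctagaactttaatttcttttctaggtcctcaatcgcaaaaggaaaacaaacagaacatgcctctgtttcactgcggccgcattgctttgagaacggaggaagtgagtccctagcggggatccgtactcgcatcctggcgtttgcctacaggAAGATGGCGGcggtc
Ndufs6 (51.2 and 53.9 TPM) holds both motifs and Ndufs4 (0.32 and 0.11 TPM) the YY1 motif but not the NRF1 motif. Read on both strands, the NRF1 motif lay in 9 of the 40 promoters (22.5%) and in 4.78% of 27025 RefSeq promoters. The YY1 motif lay in 5 (12.5%), against 1.44% of all promoters, the ETS motif CCGGAAG in 6 (15%) against 9.12%, and the GATA motif AGATAA, bound by the erythroid factor GATA1, in 2 (5%) against 11.4%. The 2 with the GATA motif were Ndufa12 and Ndufc2. No match of one motif overlapped one of another. The median level of members with the NRF1 motif was 8.77 TPM, against 11.1 TPM for those without it, and for YY1 the medians were 8.44 and 10.8 TPM. For ETS they were 9.98 and 9.95 TPM, and for GATA, with 2 genes, 43.5 and 9.01 TPM. A match describes letters in the window and not binding.

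The nuclear subunits are assembled with 7 mitochondrially encoded ones, all of which were detected, with a median of 32.3 TPM. In libraries 1 and 2, mt-Nd4l had 138 and 149 TPM, mt-Nd1 96.3 and 120 TPM, and mt-Nd5 37.5 and 38.8 TPM. mt-Nd4 had 31.3 and 33.4 TPM, mt-Nd2 25.03 and 31.45 TPM, mt-Nd3 7.09 and 1.77 TPM, and mt-Nd6, the one gene on the other strand, 1.57 and 3.43 TPM. These are poly(A)-selected values, and annotated pseudogene copies share 98.1% of the 31-base words of mt-Nd3, 98.9% of those of mt-Nd4l and 62.8% of those of mt-Nd4, so they are uncertain. The copy of mt-Nd3, Gm28438, took 0.11 counts in library 1 and 133 in library 2, and mt-Nd3 142.89 and 28.5 counts. Together the pair had 143 and 162 counts, so no difference between the libraries is read from mt-Nd3. Of the 11 other complex I assembly factors analysed, 5 were detected with a median of 0.97 TPM, close to the 0.96 TPM of the Nduf factors. The highest was Dmac1 with 6.52 and 4.99 TPM and the lowest Acad9, which works with Ndufaf1, with 0.09 and 0.16 TPM.

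The classes were set beside the rest of the respiratory chain, first over all transcripts. Complex II had 4 of 4 detected and a median of 4.26 TPM, from Sdhb at 9.48 and 11.4 TPM in libraries 1 and 2 to Sdhd at 1.28 and 2.44 TPM, and the nuclear subunits of complex III 9 of 9 with 15.5 TPM, running from Uqcr11 at 293 and 223 TPM to Uqcrc2 at 2.21 and 1.67 TPM. The nuclear subunits of complex IV had 10 of 10 with 31.5 TPM, from Cox6a1 at 764 and 906 TPM to Cox6c at 3.69 and 3.04 TPM. Complex V had 15 of 16 with 24.6 TPM, from Atp5b at 225 and 162 TPM to Atp5g2 at 0.98 and 2.55 TPM. Of the alternative electron carriers 3 of 7 were detected with a median of 1.30 TPM, from Etfb at 6.25 and 10.5 TPM to Gpd2 at 0.07 and 0.14 TPM. Over all transcripts the distal membrane arm at 45 TPM lay above every one of these medians. On protein-coding transcripts alone, with Ndufb4 at its listed level, it did not. Its median was then 10.7 TPM, against 14.9 TPM for complex III, 31.5 TPM for complex IV and 18.2 TPM for complex V. This order depends on Ndufb4. With every count of Ndufb4 and Ndufb4c given to Ndufb4, the middle distal gene would be Ndufb8 at 25.1 TPM, above complexes III and V. The matrix core lay below complexes III, IV and V on both scales.

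**Figure D4:**
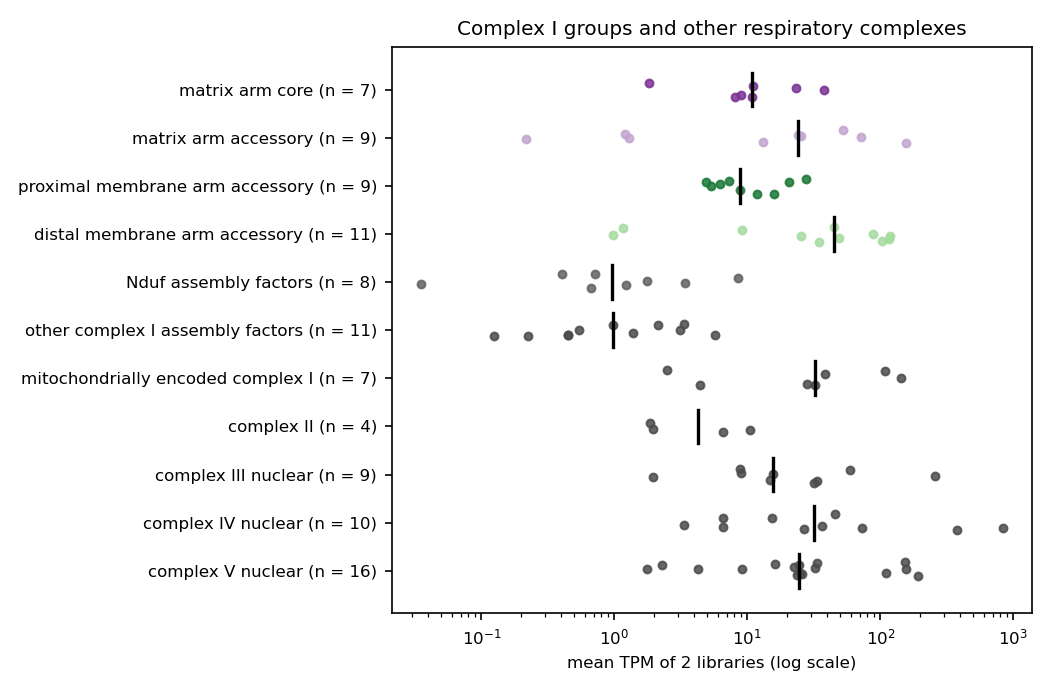
Mean TPM of single genes on a log axis by class of complex I and by other complexes of the respiratory chain, with the median of each class as a line. Over all transcripts, as drawn, the distal membrane arm has a median of 45 TPM and the Nduf assembly factors of 0.96 TPM. On coding transcripts alone, with Ndufb4 at its listed level, the distal median is 10.7 TPM.

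The 2 libraries are of 1 group, so a difference between them says only that they differ by more than counting error. Each gene's counts were split between the libraries and tested against their edgeR-scaled sizes by an exact binomial test, two-sided, with Benjamini-Hochberg adjustment over 10955 genes. The labels call the libraries biological replicates but do not say that separate embryos went into each. The p-values measure only how far these 2 libraries depart from counting error, and such a departure may be technical. Of the 46 members 33 (71.7%) passed, where 44.9% of all genes tested did. The members had more counts, a median of 1202 over both libraries against 213 for all genes tested. With 100 or more counts, 31 of 41 members passed (75.6%), against 56.0% of genes. The median size of the log2 ratio was 0.29 over the 41 members and 0.27 over 6673 protein-coding genes, and 4 of the 41 (9.76%) lay past 2-fold against 4.84% of those genes.

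Of the 33, 20 were higher and 13 lower in library 1. Over all 10955 genes tested 4914 passed, with 2461 higher (22.5% of those tested) and 2453 lower (22.4%). These counts by direction were not matched for depth. Ndufa12 had 97.5 TPM in library 1 and 44.8 TPM in library 2, on 2792 and 1035 counts. Its log2 ratio of scaled counts was 1.24 (95% interval 1.14 to 1.34, adjusted p = 4.29e-135, exact binomial test with edgeR scaling). Most of this lay in the retained-intron transcript, with 2603 and 912 estimated counts. The coding transcripts had 189 and 123 estimated counts, a log2 ratio of 0.43 (0.09 to 0.77, without the error of dividing reads among transcripts). Ndufs1 had 181 counts in library 1 and 96 in library 2 and a log2 ratio of 0.72 (0.36 to 1.10, adjusted p = 0.000295, the same test). Ndufv3, a small accessory subunit of the NADH module, had 1369 and 732 counts in libraries 1 and 2 and a log2 ratio of 0.71 (0.58 to 0.84, adjusted p = 1.14e-26, the same test). These are the largest ratios in this direction among the members with 100 or more counts in a library.

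In the other direction Ndufs8 had 388 counts in library 1 and 815 in library 2, a log2 ratio of -1.26 (-1.44 to -1.09, adjusted p = 2.50e-47, exact binomial test with edgeR scaling). Ndufa2, an accessory subunit of the matrix arm with a thioredoxin fold, had 323 and 615 counts in libraries 1 and 2 and a log2 ratio of -1.12 (-1.32 to -0.92, adjusted p = 8.83e-30, the same test). Ndufaf3 had 142 and 237 counts in libraries 1 and 2 and a log2 ratio of -0.93 (-1.24 to -0.62, adjusted p = 6.51e-09, the same test). Members with fewer counts reached larger ratios with wider intervals, such as Ndufaf1 at 1.77 (1.00 to 2.60, adjusted p = 3.27e-06, exact binomial test with edgeR scaling) and Ndufs4 at 1.65 (0.70 to 2.71, adjusted p = 0.000809, the same test). On coding transcripts alone Ndufv3 had a log2 ratio of 0.73 (0.60 to 0.87), Ndufs8 of -1.26 and Ndufa2 of -1.12. The matrix core had 3 higher and 3 lower of 6 that passed, the matrix accessory class 3 and 3 of 6, the proximal class 3 and 2 of 5, the distal class 8 and 3 of 11, the assembly factors 3 and 1 of 4, and Ndufa4l2 was lower.

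The Spearman coefficient of GC content with the log2 ratio was -0.102 over the 41 members and -0.230 over 6673 protein-coding genes. Ndufa13 and Ndufb10 had ratios of opposite sign in TPM and in scaled counts, so their direction depends on the scale; both count among the 20. The coding transcripts of Ndufb10 had 251 and 482 counts in libraries 1 and 2, a log2 ratio of -1.13 (-1.36 to -0.91). Counts of single transcripts are estimates of how a gene's reads divide among its transcripts. Intervals on coding transcripts do not cover the error of that division. Ndufb8, also among the 20, had a log2 ratio of 0.21 over all transcripts and of -0.13 (-0.25 to -0.001) on coding transcripts. Ndufb8 and Ndufb10 are both counted as higher in the distal class. With a correction for GC content, chosen after seeing the data, 30 members passed, of which 27 were among the 33, where 42.7% of all genes did.

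**Figure D5:**
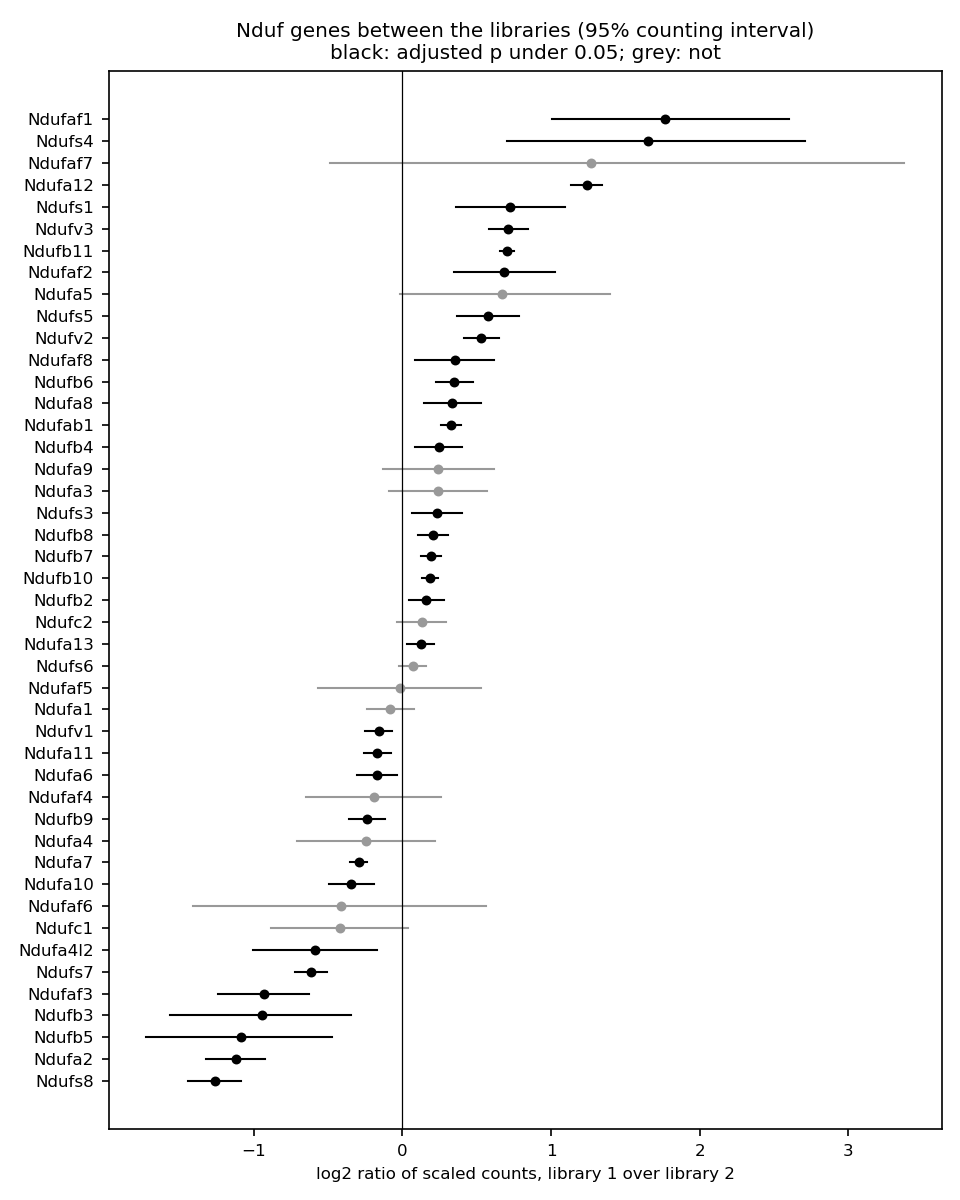
Log2 ratio of scaled counts, library 1 over library 2, with its 95% counting interval, for 45 of the 46 members; black points passed the adjusted threshold and grey points did not. Ndufa12 stands at 1.24 with a narrow interval and Ndufs8 at -1.26.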

How the data were processed

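The members, gene lists and tests were chosen with earlier results of these data known. Per the listing deposited with the tables, reads were placed on mm10 and GENCODE M4. Which aligner and quantifier were run, and with what strand setting, is not given in the sources used here. Per the file headers, the columns carry the names RSEM gives them. The deposited expected counts divide reads that match several genes or several transcripts, and were rounded for the test. The deposited TPM and posterior mean TPM are length-corrected, and the deposited FPKM served as an alternative. The deposited percent of a gene's TPM on each transcript gave the transcript shares. Symbols, positions, transcript types and GC content came from GENCODE M21 on mm10, matched by identifier without version (42462 of 43346 Ensembl rows).

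Levels are means over 2 libraries, and a gene was called detected at 1 TPM or more in both. Medians on a log scale used log2(TPM + 1). Genes with 10 or more counts in the libraries together were tested at 0.05 (scipy 1.17.1) after edgeR 4.0.16 TMM scaling (factors 0.993 and 1.01) under R 4.3.3; DESeq2 1.42.0 size factors were an alternative. The code was tested on simulated data. Intervals are Clopper-Pearson at 95% and cover counting error only, not the division of reads among genes or transcripts. The rule for named genes took the 3 highest and 2 lowest of each class, every member under 1 TPM in a library, every member led by a non-coding transcript, the 3 largest ratios each way with 100 or more counts in a library, and the highest and lowest of other lists. Other members are named to account for the set; the values of 1 member are not reported here, and it counts in the totals. The motifs are consensus forms from general knowledge, searched on both strands.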

Additional observations from a re-analysis of the deposited data

How the results depend on the processing

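The number of members detected ran from 28 to 45 under all alternatives, and the number differing between libraries from 30 to 33. The median level, 3.32 on the log2(TPM + 1) scale, was 4.11 in FPKM, 3.19 with a pseudocount of 0.1 and 3.69 over detected members alone. The share outside the globins, 0.792%, was 0.400% of expected counts and 0.117% of all TPM. Alternatives chosen after seeing the data gave, on protein-coding transcripts only, a median of 2.80 and a share of 0.513%, and, with the TPM of Ndufb4c at its own shorter length added, a share of 0.938%, but 0.837% with all counts of the pair given to Ndufb4 at its length; a GC correction left 30 differing members, 27 of them among the 33. Leaving out a library gave 39 to 41 detected, medians of 3.24 to 3.40, shares of 0.743% to 0.842%, and 31 to 32 coding leaders; other count minimums gave 22 of 29 to 35 of 45. No paired analysis was possible because the samples form 1 group. Where the counts of a gene are few, as for Ndufaf7, the depth limits what can be said.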
